A study of Mus musculus with 48 samples.

Results

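Tumours grown from the AB1 mesothelioma line were compared with tumours grown from the Renca kidney cancer line, among mice that later responded to treatment. The comparison held 24 of the 48 libraries of the study, 12 labelled AB1 responder and 12 labelled Renca responder. All 24 came from female BALB/c mice aged 8 to 9 weeks that carried the tumour cells under the skin. The whole tumour was taken out before any antibody was given, on day 8 for AB1 and day 10 for Renca, and each mouse was labelled a responder or non-responder to anti-CTLA4 plus anti-PDL-1; how response was judged is not given in full. No treatment separated the libraries, therefore, and each came from a different mouse. The other 24 libraries were 12 AB1 and 12 Renca tumours of non-responders, with the same strain, sex, age and days of removal, and were used here only to ask whether the difference between the lines was the same in them. Each tumour type was 1 transplanted cell line growing outside its organ of origin. AB1 and Renca tumours were also sequenced on different flow cells, 4 flow cells in all, so line, day of removal and flow cell cannot be told apart in any value below.

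Mesothelioma arises from the mesothelium, the cell sheet that lines the chest and abdominal cavities, while Renca comes from the cortex of the kidney, whose tubules are made of epithelium. Blocking CTLA-4 and PD-L1 removes brakes on T cells, and the state of the tumour before treatment, its T cells, natural killer (NK) cells, myeloid cells and interferon response, is widely studied as a correlate of the outcome. Interferon gamma, made by T and NK cells, is the type II interferon; it raises chemokines such as Cxcl9 and Cxcl10, guanylate-binding proteins and the antigen presentation machinery, while the type I interferons raise antiviral genes such as the Ifit family.

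Sequences shown first belong to genes on which the comparison turns. The promoter windows below, each of 150 bases, were taken from RefSeq on GRCm38.p6 and are printed 5′ to 3′ on the strand of the gene. All lie upstream of the annotated start of the gene, but those of Cxcl10, Gbp5 and Ifit3 stop short of it. The first marked match begins 213 bases before the start in Cxcl10, 59 in Gbp2, 165 in Gbp5, 104 in Ifit1 and 156 in Ifit3. In Cxcl10, Gbp2, Gbp5, Ifit1 and Ifit3, all higher in AB1, capitals mark matches on either strand to TTTC, any 2 bases and TTTC, the core of the element bound by interferon-regulated factors.
Cxcl10, chr5:92348973-92349122, minus strand: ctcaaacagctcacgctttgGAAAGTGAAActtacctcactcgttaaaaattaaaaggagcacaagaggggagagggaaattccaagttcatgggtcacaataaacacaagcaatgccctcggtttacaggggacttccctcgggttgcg
Gbp2, chr3:142620513-142620662, plus strand: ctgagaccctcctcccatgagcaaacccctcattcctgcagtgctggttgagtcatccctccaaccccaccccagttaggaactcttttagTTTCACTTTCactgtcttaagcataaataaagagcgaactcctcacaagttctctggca
Gbp5, chr3:142496749-142496898, plus strand: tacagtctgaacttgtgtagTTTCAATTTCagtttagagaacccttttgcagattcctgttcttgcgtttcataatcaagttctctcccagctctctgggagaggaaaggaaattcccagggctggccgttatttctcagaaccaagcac
Ifit1, chr19:34640739-34640888, plus strand: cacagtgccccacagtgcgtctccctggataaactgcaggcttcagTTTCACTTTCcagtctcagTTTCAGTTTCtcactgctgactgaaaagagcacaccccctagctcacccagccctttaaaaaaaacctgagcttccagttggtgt
Ifit3, chr19:34583353-34583502, plus strand: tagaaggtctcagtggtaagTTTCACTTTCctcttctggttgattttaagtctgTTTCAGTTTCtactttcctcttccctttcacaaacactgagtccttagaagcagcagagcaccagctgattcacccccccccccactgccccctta

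In the 250 bases before the start, the interferon motif was found in 2.98% of 32851 promoter entries. It was found in 8 of the 15 type II interferon genes tested here that had an entry, and in 6 of 15 type I interferon genes. A match describes the letters only.

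Whole-tumour counts were deposited for 39637 mouse genes. AB1 responder libraries held 22878744 to 24168419 counts (23643368 ± 430699, SD, n = 12) and Renca responder libraries 16441426 to 23003861 counts (20713396 ± 2067260, SD, n = 12). The share of counts in the top 10 genes was 4.71 ± 0.424% in AB1 and 6.47 ± 0.721% in Renca (SD, n = 12 each). Both differences had a two-sided permutation p of 2e-05 (also after Benjamini-Hochberg adjustment over the pair), the smallest that 100000 resamples can give. Levels are given as CPM, the counts of a gene scaled to a common library size, each difference as a log2 fold change of AB1 over Renca ± its standard error from edgeR's quasi-likelihood test, and a gene is called when its Benjamini-Hochberg adjusted p over all genes tested is below 0.05. AB1 libraries varied more among themselves than Renca libraries: the SD of log2 CPM had a median of 0.159 in AB1 and 0.118 in Renca, and was larger in AB1 for 75.2% of 10399 genes. Between the flow cells of AB1, 0 of 15646 genes were called by edgeR (0%) and 819 had an unadjusted p under 0.05 (5.23%), and between those of Renca 68 of 15450 were called (0.44%) and 2754 had such a p (17.8%). One library stood apart, AB1 responder 12, with a median distance of 0.201 (log2) from the median of its group against 0.053 to 0.144 for the other AB1 libraries and 0.0495 to 0.109 for the Renca libraries.

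Most of the transcriptome differed between the lines. Of 15623 genes tested, 12041 were called (77.1%), 6022 of them higher in AB1 (38.5%) and 6019 lower (38.5%). A call together with a difference of at least 2-fold was made for 3528 genes (22.6%), 1654 higher (10.6%) and 1874 lower (12%) in AB1. In 5113 genes (32.7%) the groups did not overlap, with every AB1 library above every Renca library for 2029 (13%) and the reverse for 3084 (19.7%). The median log2 fold change over all genes tested was 0.00935. With these shares, a call by itself says little about a gene, and the counts of each gene list below are to be read against them.

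The largest rises in AB1 included a homeobox gene without a count in Renca and the matrix genes Mgp, Col10a1 and Ltbp2. Hoxd13, a factor that patterns the ends of the limbs (GRCm38 chromosome 2, 74668310 to 74671599), had 12.8 to 25 CPM (median 17.9) in AB1 and not 1 count in any Renca responder. Against a floor of 3 counts over the Renca group, Hoxd13 was at least 1420-fold higher in AB1.

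Mgp, which encodes the matrix Gla protein, an inhibitor of calcification, was measured at 1067 to 2206 CPM (median 1584) in AB1 and 5.29 to 18 CPM (median 9.38) in Renca, a log2 fold change of 7.26 ± 0.20 (edgeR adjusted p = 5.43e-21). Hmga2, a chromatin protein of embryonic and transformed cells, stood at 105 to 303 CPM (median 200.2) in AB1 and 1.5 to 2.52 CPM (median 2.03) in Renca, a log2 fold change of 6.67 ± 0.20 (adjusted p = 2.21e-20). For both genes the lowest AB1 library lay far above the highest Renca library, although no overlap was a condition for naming them. Col10a1, a collagen of hypertrophic cartilage, was higher by 7.55 ± 0.53 and spread widest within AB1, at 10.3 to 196 CPM (median 45.8) against 0.207 to 0.62 CPM (median 0.332) in Renca.

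Other genes among the 12 largest rises were, by log2 fold change, the epidermal growth factor receptor ligand Ereg (6.42 ± 0.27), the mast cell tryptase gene Tpsab1 (6.33 ± 0.42, uncertain because near-identical tryptase genes can share reads), the neutrophil chemokine Cxcl5 (5.85 ± 0.34), the retinoic acid carrier Crabp2 (5.81 ± 0.16), the acute-phase gene Saa3 (5.74 ± 0.32), the microfibril protein Ltbp2 (5.64 ± 0.20) and the aldo-keto reductase Akr1c14 (5.57 ± 0.34). No overlap between the groups was a condition for naming these 7 genes and is not a separate result. Fgfr2, a fibroblast growth factor receptor, showed 196 to 365 CPM (median 273) in AB1 and 3.61 to 12.2 CPM (median 5.07) in Renca (log2 fold change 5.36 ± 0.22).

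The largest falls were genes with very few counts in AB1. For some genes with few counts in 1 group, the ratio of the summed CPM is given with its exact 95% binomial interval, which covers counting error only. Wfdc2, a secreted protein of glandular epithelium (chromosome 2, 164562413 to 164568510), had 376 to 547 CPM (median 488) in Renca and 5 counts over all 12 AB1 libraries, a ratio of 27200 (11600 to 83700; edgeR adjusted p = 3.7e-29). Cdh16, the kidney-specific cadherin (chromosome 8, 104601911 to 104624396), had 136 to 259 CPM (median 209) in Renca and 5 counts over the AB1 group, a ratio of 12000 (5120 to 36800). No AB1 library reached 0.1 CPM of either gene.

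Several others had only 1 or 2 counts over all AB1 libraries. Pkhd1, the gene of recessive polycystic kidney disease, stood at 24.6 to 45.2 CPM (median 34.1) in Renca and 1 count in AB1, a ratio of 9590 (1720 to 379000). Sall1, a factor of the nephron progenitors, had 34.3 to 48.8 CPM (median 42.7) in Renca and 1 count in AB1 (ratio 12200, 2180 to 481000). Pou3f3, a factor of the developing nephron, had 22.5 to 34 CPM (median 28.1) in Renca and 2 counts in AB1 (ratio 4040, 1120 to 33300).

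The sulfotransferase Sult1c2, the RNA export factor family member Nxf3 and the homeobox genes Rhox2g and Rhox2h each had 1 count in AB1, with ratios of 6460, 11000, 7110 and 6130. The Rhox2 genes are near-identical copies and their separate values are uncertain. Adgra1, an adhesion receptor gene, had 105 to 157 CPM (median 130.4) in Renca and 5 counts in AB1, the serpin Serpinb9d, one of a family of close copies and therefore uncertain, 44.1 to 79.6 CPM (median 62.3) and 5 counts, and the tight junction gene Cldn3 45.5 to 72 CPM (median 55.6) and 5 counts.

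**Figure D1:**
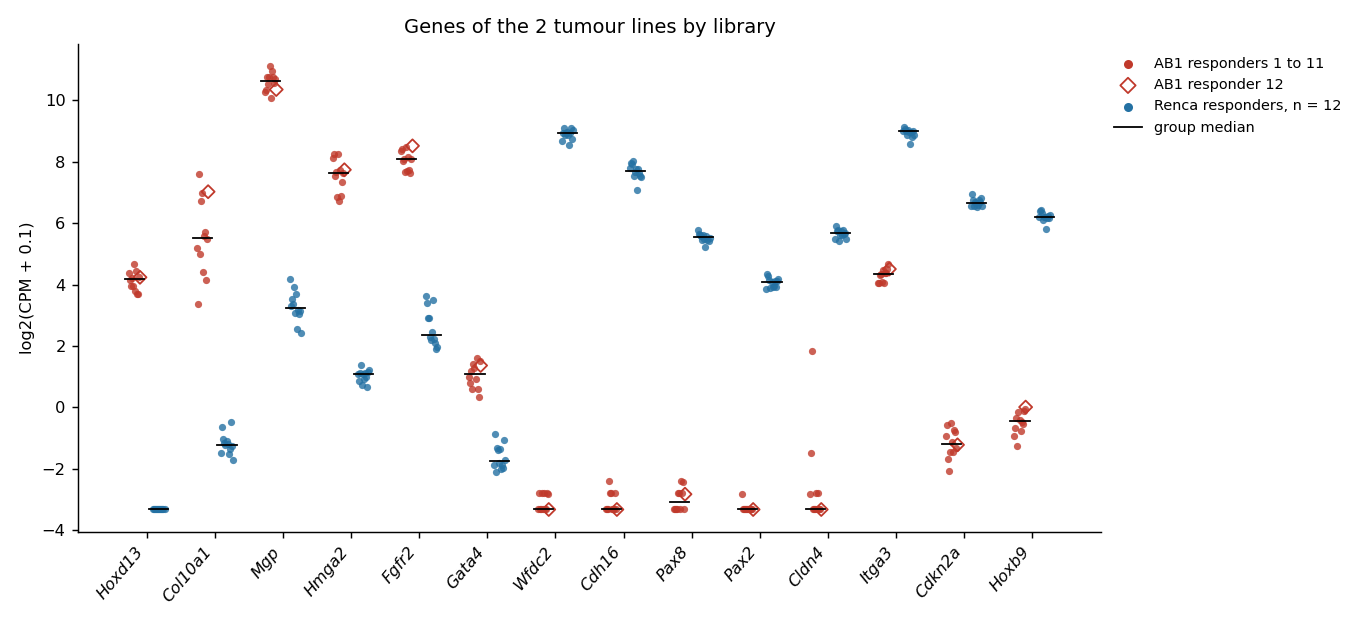
Level of 14 genes of the tumour lines in each responder library, as log2(CPM + 0.1), with AB1 in red (AB1 responder 12 as an open diamond), Renca in blue and the group median as a black bar. The groups do not overlap in any of the 14 genes, which for the largest rises and falls was a condition for being named. Hoxd13 had no count in Renca, and Wfdc2, Cdh16, Pax8 and Pax2 were near the bottom of the axis in AB1.

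The labelled origin of Renca was visible in its genes. Pax8 and Pax2, paired-box factors that mark renal epithelium, had 37.1 to 55 CPM (median 46.4) and 14.5 to 20.2 CPM (median 17) in Renca, and 8 and 1 counts in all AB1 libraries together, which for Pax2 is a ratio of 4770 (856 to 189000). Tfcp2l1, a factor of the collecting duct, had 59.3 to 108 CPM (median 78.3) in Renca against 0.206 to 0.705 CPM (median 0.479) in AB1. Of 11 kidney genes tested, 7 were lower and 2 higher in AB1, with a median log2 fold change of -7.44.

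Some genes of the mature nephron had few or no counts. Umod, made in the thick ascending limb, had no count in either responder group, and Hnf4a, a factor of the proximal tubule, had 1 count in AB1 and 0 in Renca. The salt transporter gene Slc12a1 had 44 counts over AB1 and 7 over Renca, and Slc12a3 65 and 47. The water channel gene Aqp1, which blood vessels also express, was higher in AB1, at 269.8 to 554 CPM (median 389) against 67.2 to 196 CPM (median 130.4) (log2 fold change 1.57 ± 0.13).

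The mesothelial label of AB1 was only in part visible in its genes. Of the mesothelial genes, Upk3b had 6 counts, Calb2 16, Lrrn4 16 and Muc16 26 over the 12 AB1 libraries, and none of the 4 passed the filter on low counts. Wt1, the factor most used to mark mesothelium, had 0.709 to 2.88 CPM (median 1.44) in AB1 and 0.1 to 1.35 CPM (median 0.598) in Renca, overlapping ranges with a log2 fold change of 1.24 ± 0.28 (adjusted p = 0.000258). Other genes of the list, Bnc1 (log2 fold change -3.70 ± 0.55) and the surface mucin-like gene Pdpn, were lower in AB1, Pdpn at 49.5 to 93 CPM (median 58.8) against 233 to 305 CPM (median 271) (log2 fold change -2.08 ± 0.10).

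Factors of the mesoderm that lines the cavities were higher in AB1. Gata4 had 1.18 to 2.97 CPM (median 2.03) in AB1 and 0.131 to 0.448 CPM (median 0.196) in Renca, a ratio of 8.28 (counting interval 6.34 to 11), and Tbx18, a factor of the epicardium, 23.5 to 39.4 CPM (median 29.1) and 3.67 to 6.79 CPM (median 4.78) (log2 fold change 2.55 ± 0.10). Of the 9 mesothelial genes tested, 6 were higher and 2 lower in AB1, with a median of 1.24. Msln, Upk1b and Gata6 were not analysed here.

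The lines also differed along the axis from epithelium to mesenchyme. Of 11 epithelial junction genes and their regulators, 7 were lower in AB1 and 3 higher, with a median log2 fold change of -2.31. Cdh1, the epithelial cadherin, had 61.7 to 129.6 CPM (median 80.3) in Renca and 10.2 to 30.4 CPM (median 15.5) in AB1 (-2.31 ± 0.17), and Cldn4, a tight junction claudin, 42.5 to 59.7 CPM (median 50.8) in Renca and 0 to 3.44 CPM (median 0) in AB1 (-7.26 ± 0.52). The highest Cldn4 value in AB1 came from AB1 responder 3, the library that also had the highest summed skin genes, at 87.14 CPM against 4.231 to 11.49 in the other AB1 libraries; the part of skin in that value was not tested.

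Of 12 mesenchymal genes, 9 were higher and 3 lower in AB1. Cdh2, the neural cadherin of mesenchymal cells, was at 16.3 to 39.6 CPM (median 21.6) in AB1 and 4.04 to 8.96 CPM (median 6.16) in Renca (log2 fold change 1.96 ± 0.15), and fibronectin, Fn1, at 2384 to 4546 CPM (median 3398) and 610.2 to 1329 CPM (median 772) (2.03 ± 0.14). Cdh11, a cadherin of mesenchymal and bone-forming cells, went the other way, at 26.2 to 52.9 CPM (median 36.7) and 164 to 283 CPM (median 222) (-2.57 ± 0.11).

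Among tumour suppressors, Cdkn2a, which encodes both p16INK4a and p19ARF (chromosome 4, 89274471 to 89294653), was nearly absent from AB1. Its level was 0.136 to 0.61 CPM (median 0.343) in AB1 and 91.7 to 123 CPM (median 101) in Renca, a ratio of 284 of Renca over AB1 (counting interval 234 to 349; edgeR adjusted p = 8.13e-27). Mtap, its neighbour on the chromosome (chromosome 4, 89137122 to 89181081) and often lost with it in human mesothelioma, was at 12.3 to 16.9 CPM (median 15.5) in AB1 and 41 to 48.4 CPM (median 43) in Renca (log2 fold change -1.52 ± 0.05). The Mtap groups did not overlap, and Mtap remained measurable in every AB1 library.

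Other suppressors linked to mesothelioma had smaller log2 fold changes. Nf2, a regulator of the Hippo pathway, had a log2 fold change of -0.92 ± 0.03, and Bap1, a deubiquitinase, of -0.63 ± 0.03. Trp53 was higher in AB1 (0.53 ± 0.04), as was Cdkn1a, the p53 target that encodes p21 (0.93 ± 0.08). Of the 12 suppressors tested, 6 were higher and 5 lower in AB1, with a median of 0.01.

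The receptor tyrosine kinases were split, with 8 of 17 higher and 6 lower in AB1 (median 0.27). Beside Fgfr2, Pdgfra, the platelet-derived growth factor receptor of mesenchymal cells, was higher in AB1, at 251 to 547 CPM (median 387) against 73.6 to 139 CPM (median 102) (1.95 ± 0.12). Erbb2 (-1.15 ± 0.07) and Epha2 (-1.43 ± 0.14), receptors of epithelial cells, were lower in AB1.

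Hox genes, whose order along the chromosomes follows position along the body, were used differently by the lines. Of 31 tested, 10 were higher and 17 lower in AB1 (median -0.48, and also with Hoxd13 set at its bound). Hoxb9 had 55.8 to 85.2 CPM (median 73.3) in Renca and 0.318 to 0.907 CPM (median 0.637) in AB1, and its neighbour Hoxb8 14.3 to 24 CPM (median 20.4) and 1.68 to 3.22 CPM (median 2.45) (log2 fold change -3.04 ± 0.09). At the other end were Hoxd13 and Hoxc13, the last genes of their clusters, with Hoxc13 at 1.09 to 4.08 CPM (median 1.57) in AB1 and 0 to 0.436 CPM (median 0) in Renca (4.77 ± 0.44). Of 17 imprinted genes, 10 were lower in AB1 and 2 higher (median -0.69); the maternally expressed RNAs Meg3 (-2.20 ± 0.20) and Rian (-2.32 ± 0.16), from 1 imprinted cluster, were both lower.

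Fibrillar matrix genes were mostly lower in AB1. Of 16 fibroblast and fibrillar matrix genes, 12 were lower in AB1 and 3 higher, with a median of -1.37 against 0.00935 over all genes. Col1a1, the main chain of type I collagen, was at 1237 to 4665 CPM (median 1659) in AB1 and 3386 to 11581 CPM (median 5869) in Renca (-1.71 ± 0.22), and Fbln1, a matrix glycoprotein, at 11.9 to 34.6 CPM (median 23.8) and 301 to 564 CPM (median 422) (-4.09 ± 0.17). The highest Col1a1 value in AB1 came from AB1 responder 12 and was the only one inside the Renca range. Fap, the protease of activated fibroblasts, was higher in AB1 instead (1.01 ± 0.17). Col3a1 was lower in AB1 (-0.63 ± 0.16), but between the libraries of the second flow cell of each line alone the value was -0.17 and not called. These are whole tumours, so fewer cells of a type and less RNA per cell cannot be told apart here or in the immune genes below.

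Basement membrane genes were mixed, with 7 of 17 higher and 9 lower in AB1. The 2 furthest apart of those named were lower in AB1: Itga3, the laminin-binding integrin chain, at 16.3 to 25.4 CPM (median 20.3) against 379.8 to 563 CPM (median 505) (-4.63 ± 0.08), and Lama5, the laminin alpha5 chain of kidney basement membrane, at 33.4 to 71.1 CPM (median 50.6) against 419 to 532 CPM (median 474) (-3.21 ± 0.09). Blood endothelial genes had 3 of 13 higher and 4 lower (median -0.03), but with flow cells paired, 2 to 7 were higher and 2 to 9 lower, so no direction can be given.

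Skeletal muscle genes were lower in AB1 for 8 of 12 (median -0.87). The summed level ran from 140.2 to 1773 CPM (median 807.1) in AB1 and from 43.12 to 2877 CPM (median 1711) in Renca, wholly overlapping. The count of 8 was not stable: it was 4 or 5 without any 1 of AB1 responders 1, 2, 4, 7, 9, 10 and 11 and Renca responders 3, 5, 6, 7, 8, 10 and 12, it was 2 with RNA purity as a covariate, and it was 1 between either AB1 flow cell and the second Renca flow cell. Leaving out AB1 responder 12 and Renca responder 11, the library with least muscle, gave 11 of 12 lower. What was cut with each tumour was not tested.

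**Figure D2:**
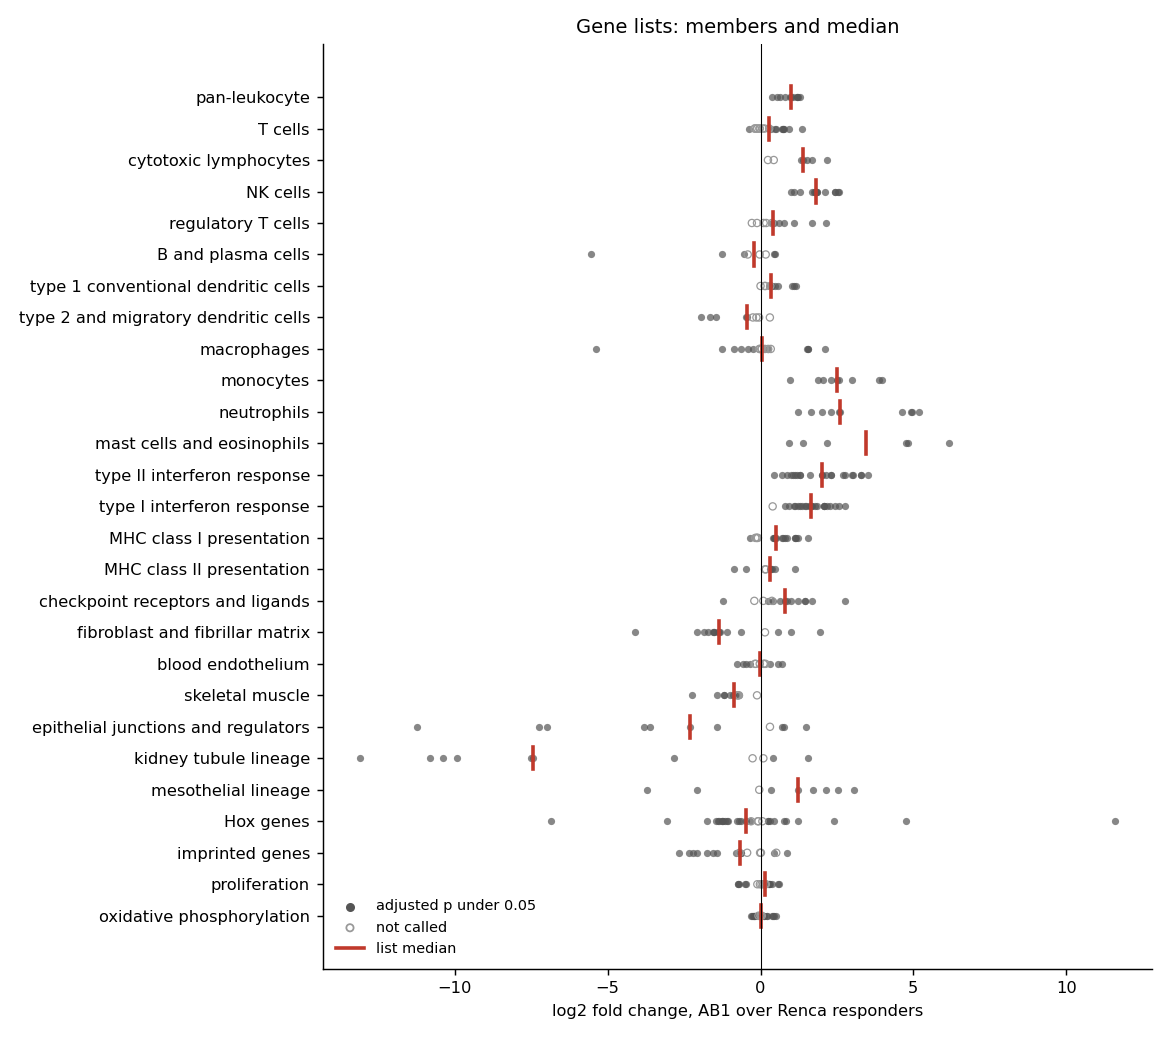
Log2 fold change of AB1 over Renca responders for the tested members of 27 gene lists. Filled points are called at an adjusted p under 0.05, open points are not, and the red bar is the list median; the point of Hoxd13 is a fitted value, since Renca had no count. Kidney genes lie farthest left, with a median of -7.44, and mast cell, neutrophil, monocyte and interferon lists lie to the right.

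Genes of different immune cell types differed between the lines to different degrees. Of 11 pan-leukocyte genes, 11 were higher in AB1, with a median log2 fold change of 0.998. Ptprc, which encodes the leukocyte antigen CD45, had 445 to 1159 CPM (median 929) in AB1 and 293 to 582 CPM (median 375) in Renca (1.21 ± 0.13, adjusted p = 4e-09). The summed level of the list ran from 2717 to 5821 CPM in AB1 and from 1972 to 3122 CPM in Renca, and the lowest AB1 value, the only one inside the Renca range, was that of AB1 responder 12.

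The core T cell genes were not among them. Cd3e, a chain of the T cell receptor complex, was at 11.8 to 33.1 CPM (median 21.1) in AB1 and 16.4 to 37.4 CPM (median 23) in Renca, a log2 fold change of -0.19 ± 0.17 with an approximate 95% interval of -0.54 to 0.15 (adjusted p = 0.289). Cd8a, of cytotoxic T cells, was at 14 to 67.4 CPM (median 40.3) and 23.8 to 82.9 CPM (median 43.3) (-0.18 ± 0.26, interval -0.72 to 0.36). Cd4 had -0.11 ± 0.12 (interval -0.36 to 0.15), and Foxp3, the factor of regulatory T cells, 0.10 ± 0.18 (interval -0.27 to 0.47). For all 4 genes the groups overlapped, and the intervals bound the size of a difference without showing that there was none.

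Of 19 T cell genes in all, 9 were higher and 1 lower in AB1 (median 0.28). Those that were higher included Lck, Zap70, Cd247, Cd2 and Sh2d1a, which NK cells express as well. The other higher genes are not named here, and the part of NK cells in these values was not tested. Across the alternative fits, 6 to 10 of the T cell genes were higher and 0 to 1 lower. The count of higher genes was 6 in 2 of the pairs of flow cells. Of 12 genes of regulatory T cells, 7 were higher and none lower in AB1, but 4 were higher in 2 of the pairs of flow cells, and 1 was lower without AB1 responder 7.

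NK cell genes were higher throughout. All 15 tested were higher in AB1, with a median of 1.83, and 15 of 15 were called in every alternative fit. Ncr1, the NK activating receptor NKp46, was at 26.7 to 104 CPM (median 71.2) in AB1 and 6.36 to 18.3 CPM (median 13.4) in Renca (2.44 ± 0.18, adjusted p = 2.43e-12), with no overlap. Klrk1, the NKG2D receptor, was at 56.7 to 202 CPM (median 165) and 27.1 to 74.5 CPM (median 41.1) (1.83 ± 0.17), and Klrg1, a receptor of mature NK and effector T cells, at 3.34 to 25.4 CPM (median 15.8) and 1.6 to 4.52 CPM (median 2.38) (2.56 ± 0.25). In both Klrk1 and Klrg1, 1 AB1 library fell inside the Renca range, AB1 responder 12, at 56.72 CPM of Klrk1 and 3.341 CPM of Klrg1.

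Cytotoxic genes followed, with 5 of 7 higher and none lower in AB1 (median 1.39). Eomes, a factor of NK and CD8 cells, had a log2 fold change of 1.69 ± 0.17, the granule protein gene Nkg7 1.52 ± 0.19, and Cst7, the inhibitor cystatin F, 2.18 ± 0.19. Gzmd, a granzyme gene, had 1702 counts over AB1 and 8 over Renca but was not tested, because AB1 responder 12 had 7 counts and so fell under the filter.

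Monocyte, neutrophil and mast cell genes had the highest medians among the immune cell lists. All 9 monocyte genes were higher in AB1 (median 2.50), with 7 of 9 not overlapping. Among the 9 was Fn1, also counted with the mesenchymal genes above, and the cells its RNA came from cannot be told. Plac8 was at 321 to 969 CPM (median 893) in AB1 and 38.9 to 95.2 CPM (median 54.9) in Renca (3.86 ± 0.17), Ly6c2, the antigen of inflammatory monocytes, at 176 to 1104 CPM (median 758) and 55.1 to 164 CPM (median 85.9) (2.99 ± 0.24), and Ccr2, the receptor that brings monocytes out of the marrow, at 359 to 889 CPM (median 722) and 262 to 487 CPM (median 337) (0.98 ± 0.12). The chemokines that bind Ccr2 were higher too, Ccl2 by 2.68 ± 0.17 and Ccl7 by 2.92 ± 0.17.

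All 10 neutrophil genes tested were higher in AB1 (median 2.58). S100a8 and S100a9, the calprotectin chains, were higher by 4.64 ± 0.28 and 4.93 ± 0.31, S100a9 at 32.4 to 137 CPM (median 62.6) against 0.7 to 6.26 CPM (median 2.53). Cxcr2, the neutrophil chemokine receptor, was at 21.2 to 102 CPM (median 40.5) in AB1 and 0.75 to 2.64 CPM (median 1.22) in Renca (5.20 ± 0.31), and Csf3r, the receptor for granulocyte growth factor, at 117 to 441 CPM (median 259) and 50.6 to 98.3 CPM (median 65.1) (2.02 ± 0.18). Of 13 neutrophil and monocyte chemokine genes, 10 were higher and 1 lower (median 1.86), Cxcl5 most of all and Cxcl1 by 2.12 ± 0.29. Ly6g, Camp and Ngp, markers of mature neutrophils and their granules, had 184, 36 and 39 counts in AB1 against 18, 5 and 1 in Renca and were below the filter.

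Mast cell and eosinophil genes were higher in AB1 for all 6 tested (median 3.47). Of these, Fcer1a had 1526 counts over AB1 and 18 over Renca, and Ms4a2 1586 and 51. Both passed the filter on low counts only through AB1, so their direction was fixed by the filter. The eosinophil granule genes Epx (5 counts over AB1, 0 over Renca) and Prg2 (62 and 20) were below the filter. The mast cell protease Cpa3 was at 20.5 to 122 CPM (median 49.6) in AB1 and 1.11 to 5.06 CPM (median 1.66) in Renca (4.83 ± 0.29), and Ms4a2, a chain of the IgE receptor, at 2.66 to 8.97 CPM (median 5.71) and 0.0436 to 0.45 CPM (median 0.165) (4.77 ± 0.28). Neither gene overlapped between the groups.

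Macrophage genes did not move together. Of 18 tested, 5 were higher and 6 lower in AB1, with a median of 0.03. Csf1r, the macrophage growth factor receptor, was at 561 to 1073 CPM (median 809) in AB1 and 674 to 914 CPM (median 775) in Renca (0.03 ± 0.09, interval -0.15 to 0.21, not called), and the complement gene C1qa had 0.14 ± 0.10 (interval -0.06 to 0.35, not called). Fcgr1, the high-affinity IgG receptor that interferon gamma raises, was higher in AB1 (1.55 ± 0.10), while the mannose receptor gene Mrc1 (-1.27 ± 0.20) and Cd68 (-0.63 ± 0.08) were lower.

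Gpnmb, a lysosomal membrane protein of macrophages, osteoclasts and several tumours, was at 7.71 to 63.2 CPM (median 13.1) in AB1 and 632 to 819 CPM (median 753) in Renca, a log2 fold change of -5.37 ± 0.29. The cells it came from cannot be told in bulk RNA. Dendritic cell genes were split by type: 8 of 12 of type 1 conventional dendritic cells were higher and none lower, Xcr1 by 0.47 ± 0.18 (not called in 4 of the alternative fits), and 5 of 9 of type 2 and migratory dendritic cells were lower and none higher, Cd209a by -1.96 ± 0.24 and Mgl2 by -1.64 ± 0.29 (not called between 1 pair of flow cells, at -0.97). Over the alternative fits, 4 to 10 were higher for type 1 and 1 to 6 lower for type 2, with the lowest counts between pairs of flow cells; 1 type 2 gene was higher without any 1 of AB1 responders 1 and 5 and Renca responders 2, 6 and 8.

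B cell genes gave 2 higher and 3 lower of 8. Pax5, a factor of B cells and of part of the embryonic brain, was at 19.3 to 24.2 CPM (median 20.3) in Renca and 0.131 to 0.828 CPM (median 0.358) in AB1 (-5.56 ± 0.17).

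**Figure D3:**
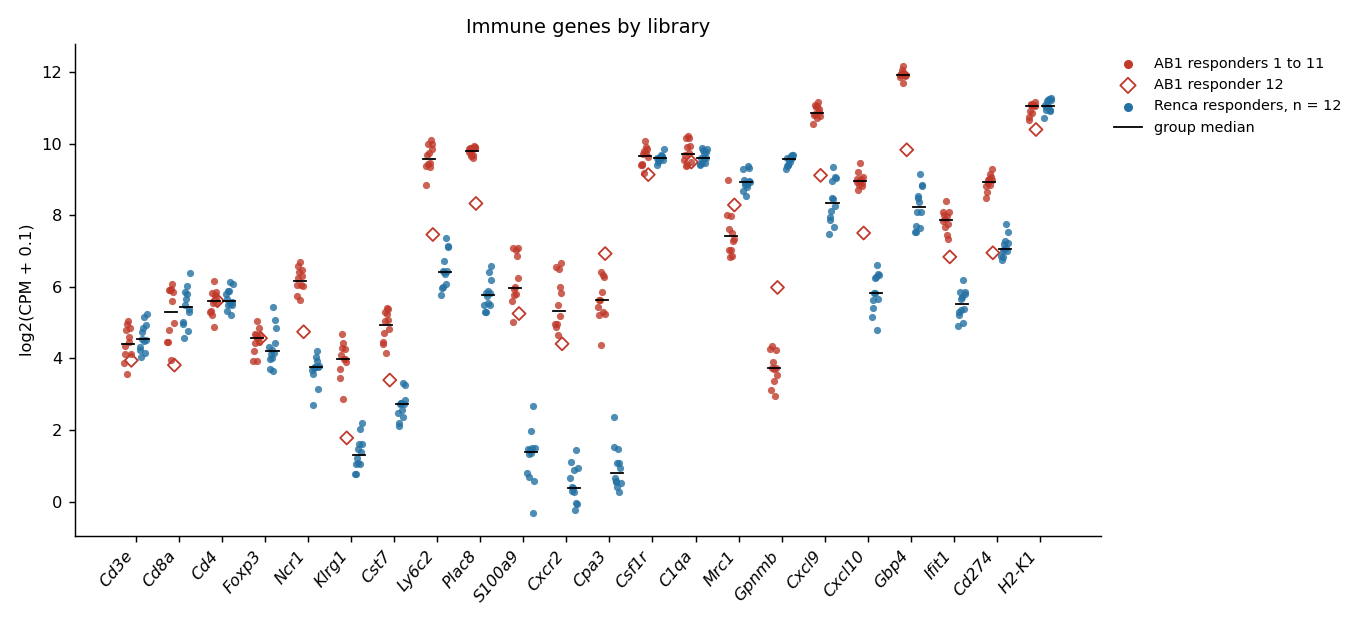
Level of 22 immune genes in each responder library, as log2(CPM + 0.1), with AB1 in red, Renca in blue and group medians as black bars. Cd3e, Cd8a, Cd4 and Foxp3 overlap between the groups, the NK, monocyte, neutrophil and mast cell genes are higher in AB1, and AB1 responder 12 (open diamond) lies below the other AB1 libraries for Ncr1, Klrg1, Cst7, Ly6c2, Plac8, Cxcl9, Cxcl10, Gbp4, Ifit1 and Cd274 and above them for Cpa3 and Gpnmb.

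The interferon response was higher in AB1 almost gene for gene. Of 22 type II interferon genes, 22 were higher, with a median of 2.01 and 10 not overlapping. Of 24 type I genes, 23 were higher, with a median of 1.65 and 17 not overlapping. The exception was Rsad2, the antiviral gene viperin, at 49.2 to 169.6 CPM (median 92.7) in AB1 and 45.1 to 119.8 CPM (median 81.7) in Renca (0.40 ± 0.19, adjusted p = 0.054), which passed the threshold under the RLE scaling at 0.41.

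Cxcl9 and Cxcl10, chemokines that attract T and NK cells through Cxcr3, were at 554 to 2299 CPM (median 1840.1) and 181 to 706 CPM (median 494) in AB1 and 178 to 644 CPM (median 326) and 27.9 to 97.9 CPM (median 56.6) in Renca (log2 fold change 2.32 ± 0.22 and 2.99 ± 0.20). The guanylate-binding protein Gbp4 was at 907 to 4564 CPM (median 3866) in AB1 and 184 to 564 CPM (median 303) in Renca (3.51 ± 0.23, adjusted p = 2.49e-13). Its relatives Gbp5 (3.04 ± 0.20) and Gbp2 (2.15 ± 0.16), whose promoters are printed above, and the factor Irf1 (2.03 ± 0.13) went the same way; members of the Gbp family are close copies, so single values may share reads.

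Of the type I genes with printed promoters, Ifit1 was at 114 to 337 CPM (median 233) in AB1 and 30 to 73.2 CPM (median 45.9) in Renca (2.26 ± 0.16), and Ifit3 at 143 to 449 CPM (median 299) and 26.3 to 71.3 CPM (median 43.1) (2.76 ± 0.19). The immunity-related GTPase gene Irgm1 was higher by 1.31 ± 0.12. The summed genes of the type II interferon response ran from 19420 to 23160 CPM in 11 AB1 libraries, from 3464 to 7290 CPM in Renca, and stood at 7532 CPM in AB1 responder 12. Cxcl9 in AB1 responder 12 was 553.6 CPM, inside the Renca range, while the next lowest AB1 library had 1494 CPM.

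That library was low in other immune sums and high in matrix. It had 277.8 CPM of genes of NK cells against 484.8 to 749.8 in the other AB1 libraries, and 39100 CPM of fibroblast and fibrillar matrix genes against 14420 to 20030. Without it and Renca responder 11, chosen after the data were seen, the counts of higher genes were 22 of 22 for type II interferon, 24 of 24 for type I interferon, 15 of 15 for NK cells, 9 of 9 for monocytes and 10 of 10 for neutrophils.

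Class I antigen presentation genes were mostly higher in AB1. Of 19 class I genes, 14 were higher and 1 lower (median 0.51). The immunoproteasome gene Psmb10 was at 193 to 383 CPM (median 332) in AB1 and 78.2 to 149 CPM (median 101) in Renca (1.56 ± 0.11), and B2m, the light chain of class I, was higher by 0.47 ± 0.08. H2-K1 was at 1344 to 2291 CPM (median 2136) and 1668 to 2454 CPM (median 2122) (-0.13 ± 0.08, interval -0.30 to 0.04, not called; -0.17 and called with library totals) and H2-D1 was lower (-0.34 ± 0.08), a call lost between the second AB1 flow cell and either Renca flow cell (-0.26 and -0.28); with library totals as the only scaling, 5 class I genes rather than 1 were lower, and 2 or 3 were lower without any 1 of AB1 responders 1, 2, 6 and 8 and Renca responders 1, 4 and 9. The 2 genes belong to a family of close copies and their counts may share reads.

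Of 9 class II genes, 5 were higher and 2 lower (median 0.30). H2-Ab1 was higher by 0.46 ± 0.13, and H2-Aa was at 1124 to 2553 CPM (median 1748) in AB1 and 1264 to 2024 CPM (median 1500.3) in Renca (0.15 ± 0.13, interval -0.13 to 0.42, not called). The count of 5 was 1 and 2 in 2 of the pairs of flow cells and 2 with RNA purity as a covariate.

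Checkpoint receptors and ligands were mostly higher in AB1, for 11 of 15 genes, with 1 lower (median 0.80). Without either AB1 responder 12 or Renca responder 12, 2 were lower. Ctla4, which encodes an antibody target, is not reported here. Cd274, which encodes PD-L1, one of the antibody targets, was at 124 to 625 CPM (median 489) in AB1 and 107 to 216 CPM (median 134) in Renca (1.69 ± 0.17, adjusted p = 1.31e-09). Pdcd1lg2, which encodes PD-L2, was at 11.8 to 126 CPM (median 67.7) and 5.19 to 14.3 CPM (median 9.6) (2.76 ± 0.28). Each overlapped in only 1 AB1 library, AB1 responder 12. The receptors Havcr2 (TIM-3, 1.46 ± 0.13) and Lag3 (1.24 ± 0.17) were higher, and Pvr, the ligand of TIGIT and CD226, was lower, at 39.8 to 65 CPM (median 47.3) against 97.4 to 134 CPM (median 109.8) (-1.22 ± 0.07).

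Of 14 T cell attracting chemokine and receptor genes, 12 were higher and none lower (median 1.46), and of 16 cytokine genes 14 were higher and 1 lower (median 1.19). Il15, the growth factor of NK and memory T cells, was at 16.6 to 34.3 CPM (median 29.5) in AB1 and 3.71 to 6.5 CPM (median 4.5) in Renca (2.55 ± 0.11). Il33, an alarmin of stromal cells, was at 34.3 to 77.3 CPM (median 55) and 6.36 to 15.6 CPM (median 12.4) (2.27 ± 0.15). Neither overlapped between the groups.

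Proliferation genes gave 7 higher and 5 lower of 19 (median 0.14): Mki67 was higher in AB1 (0.59 ± 0.08), while the replication licensing gene Mcm3 was lower (-0.72 ± 0.06). Respiratory chain genes gave 9 higher and 7 lower of 20 (median 0.02). Of 19 hypoxia and glycolysis genes, 14 were higher and 1 lower (median 0.53), with the lactate exporter gene Slc16a3 higher by 2.57 ± 0.20 and Ndrg1, a stress gene, lower at 128 to 267 CPM (median 147) in AB1 against 848 to 1144 CPM (median 932) in Renca (-2.54 ± 0.11).

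By position, chromosome medians were small, but the shares of genes called were uneven. Over all genes, 38.5% were higher and 38.5% lower in AB1. On chromosome 16, 56.1% were lower and 24.3% higher, and on chromosome 2, 52.1% and 26.1%. Chromosome 19 leaned the other way, with 50.8% higher and 29.2% lower. The cause was not tested. The chromosome medians of the log2 fold change ran from -0.30 on chromosome 16 (412 genes) to 0.16 on chromosome 6 (985 genes). In runs of 50 neighbouring protein-coding genes, 461 in all, the 5th to 95th percentile of the medians was -0.41 to 0.26. The 1 run past 1 in size lay on chromosome 6 from 127887589 to 134711187 (GRCm38), which holds the NK receptor cluster, with a median of 1.19 among responders and 0.37 among non-responders.

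**Figure D4:**
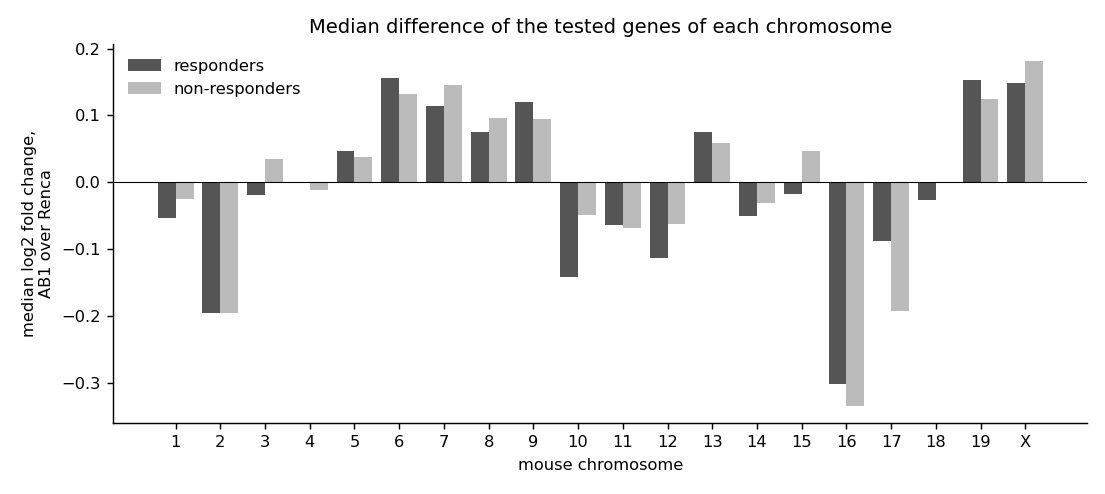
Median log2 fold change of AB1 over Renca over the tested genes of each mouse chromosome, in responders (dark) and non-responders (light). Chromosome 16 has the lowest bars, at -0.30 in responders and -0.33 in non-responders; the highest are chromosome 6 in responders (0.16) and X in non-responders (0.18).

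The same contrast among non-responders, on 24 other libraries, called 11954 of 15647 genes (76.4%), 38.3% higher and 38.1% lower in AB1, and 22.6% at 2-fold or more, 10.9% higher and 11.7% lower. Of the genes called at 2-fold or more, 2474 were shared in direction, 70.1% of the responder list and 69.9% of the non-responder list. The difference of the contrasts, tested over all 48 libraries with flow cell within tumour as a term, was called for 7441 of 16509 genes (45.1%): for 3048 (18.5%) the log2 ratio of AB1 over Renca was higher among responders and for 4393 (26.6%) lower. The split was closer to even with RLE scaling (3436 and 3792) and with DESeq2 (3560 and 3855). Of the 3528 genes at 2-fold among responders, 1760 (49.9%) had a called difference.

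The lists held these called differences, to be read against 18.5% higher and 26.6% lower over all genes. Of 11 kidney genes, 1 had a contrast called higher and 2 lower among responders. All 11 pan-leukocyte genes had a higher contrast among responders, as had 14 of 19 T cell, 13 of 15 NK, 9 of 10 neutrophil, 13 of 19 class I and 8 of 9 class II genes. For Cd8a the contrast was -0.18 among responders and -1.60 among non-responders, a difference of 1.42 ± 0.38 (adjusted p = 0.00244). For Cd274 it was 1.69 and 0.05 (1.67 ± 0.37, adjusted p = 0.000373).

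Among interferon genes the contrast was higher among responders for 5 of 22 type II and 8 of 24 type I genes and lower for none. Ifit1 had 2.26 among responders and 2.27 among non-responders, and Cxcl10 2.99 and 2.78, neither difference called. Matrix and Hox genes went the other way, with the contrast lower among responders for 12 of 16 matrix, 16 of 31 Hox and 12 of 17 imprinted genes. Called in both contrasts but in opposite directions were 475 genes. Lcn2, the neutrophil and epithelial lipocalin, and Gm7665 were the 2 genes called at 2-fold in opposite directions: Lcn2 had 1.66 among responders and -2.31 among non-responders (3.94 ± 0.48, adjusted p = 7.24e-08). With RNA purity as a covariate, Lcn2 among responders was 0.86 and not called.

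Of the 16 genes with the smallest p for the difference, 8 in each direction, all 16 had medians that lay further apart, as a ratio, between AB1 responders and non-responders than between Renca responders and non-responders. Card9, an adaptor of fungal sensing in myeloid cells, had a median of 32 CPM in the AB1 responders against 18.3 CPM in the AB1 tumours of non-responders, while the Renca medians were 67.8 and 75.3 CPM (difference 1.08 ± 0.10). Hsd11b1, which regenerates active glucocorticoid, had 55, 15.3, 15.8 and 18.4 CPM in the same order (2.05 ± 0.21). S100a4, a calcium-binding protein of motile cells, had 123, 312, 62.9 and 59.4 CPM (-1.24 ± 0.14), and Penk, the opioid precursor proenkephalin, 9.94, 56.8, 3.8 and 2.96 CPM (-2.76 ± 0.33).

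**Figure D5:**
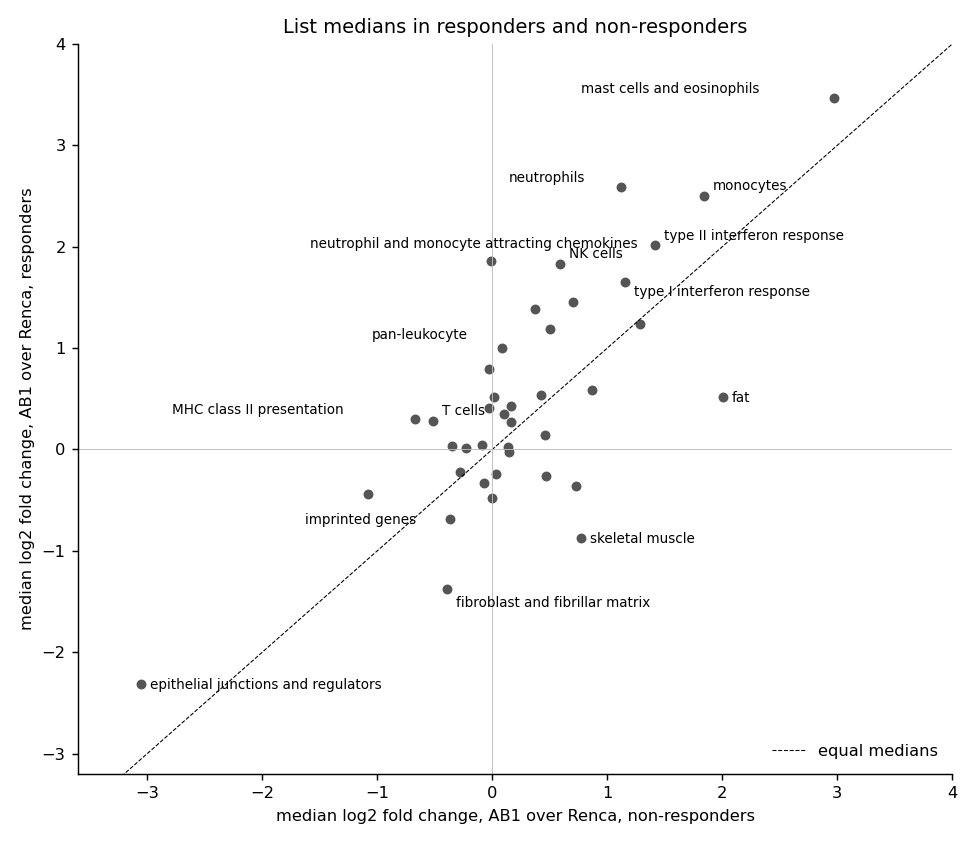
Median log2 fold change of AB1 over Renca of each gene list with at least 6 tested genes and a median under 5 in size, among non-responders (horizontal) and responders (vertical); the dashed line marks equal medians. Neutrophil and NK lists and the pan-leukocyte list lie above the line, at 2.58, 1.83 and 0.998 among responders against 1.12, 0.59 and 0.08 among non-responders, and matrix, fat and muscle lists lie below it.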

How the data were processed

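RNA from 48 whole tumours was sequenced, and the comparison here used the 12 AB1 and 12 Renca responder libraries, with the 24 non-responder libraries for the difference of contrasts. The authors deposited whole-number counts per gene, not normalized, in 1 table; each column was matched to its sample by title. HISAT2 2.0.4, StringTie 1.3.0 and bcl2fastq 2.18.0.12 are listed in the submitters' processing notes, along with a human build, although the gene IDs are mouse. The sources used here state neither the counting tool nor its use of strand. Overlapping genes and close copies may share reads. Total counts are given with the results. Symbols and coordinates came from GENCODE M21 (GRCm38) by Ensembl ID (39461 of 39637 matched), and promoters from RefSeq.

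Genes passing edgeR's filterByExpr were tested with TMM scaling and the quasi-likelihood F test (edgeR 4.0.16, limma 3.58.1, R 4.3.3), with Benjamini-Hochberg adjustment over all genes tested at 0.05. Standard errors were the log2 fold change divided by the square root of F, and intervals used 22 degrees of freedom. This form is too small where 1 group has few counts. For some such genes a ratio, with or without a counting interval, or no error is given. The form was kept for others with under 200 counts in 1 group, whose printed errors are therefore too small. These include Hoxc13, Bnc1, Ms4a2, Ereg, Csn3, Col10a1, Cldn4, Pax5 and Wt1. The members and gene lists (46) were chosen with earlier results of these data known. Named genes were the 12 largest rises and falls with no overlap and an average log2 CPM of at least 3, the first 6 and the 4 of smallest p in each list, and the 8 rises and 8 falls of smallest p in the difference; genes used to check labels, and Gzmd, were named after their values were seen. Some items that the rule names are not reported here. On simulated counts for 15623 genes of this comparison, 36 of 50 genes changed by 0.5 (log2), 93 of 100 changed by 1 and 50 of 50 changed by 2 were called. So were 12 unchanged genes. Far fewer genes were changed there than were called in the data, so these rates do not carry over to this comparison. Alternatives were RLE scaling, library totals, no filter, DESeq2 1.42.0, all 48 libraries in 1 fit, a replicate block, RNA purity ratios as covariates, pairs of flow cells and leaving out each library. No replicates were duplicates: the lowest chi-square per degree of freedom between libraries of a group was 9.7. Each library came from a separate mouse, per the labels.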

Additional observations from a re-analysis of the deposited data

Results flagged for a closer look

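The difference of the AB1 over Renca contrast, responders minus non-responders, was called for 7441 genes (edgeR, adjusted p below 0.05), and the genes named here that were among them follow with their log2 differences. No difference is explained.

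Genes of the tumour lines had differences of -2.59 for Col10a1, -1.22 for Akr1c14, -2.16 for Adgra1, -3.17 for Cldn3, 0.90 for Tfcp2l1 and -2.67 for Bnc1. Next in that group came -3.2 for Cldn4, 0.79 for Cdh1, -1.02 for Cdh2, -0.97 for Fn1, -0.40 for Cdh11 and 1.3 for Saa3. AB1 responders held only 90 counts of Cldn4, 5 of Cldn3 and 39 of Bnc1. Among AB1 non-responders, summed epithelial junction genes had a median of 25.85 CPM and a maximum of 353.4. Summed skin genes there had a median of 10.29 CPM and a maximum of 781.8. How far single libraries carry the differences of Cldn4, Cldn3 and Bnc1 was not tested.

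Suppressor, receptor, Hox and imprinted genes had differences of 0.52 for Cdkn2a, 0.18 for Mtap, -0.21 for Nf2, -0.23 for Trp53, -0.38 for Cdkn1a and -0.94 for Fgfr2. Next in that group came -0.51 for Epha2, -0.43 for Erbb2, -0.35 for Hoxb8, -0.78 for Meg3 and -0.78 for Rian.

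Matrix genes had differences of 0.49 for Lama5, -0.99 for Col1a1, -1.12 for Col3a1 and -1.17 for Fap.

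Lymphocyte genes and checkpoints had differences of 1.11 for Ptprc, 0.88 for Cd3e, 1.42 for Cd8a, 1.26 for Cst7, 1.18 for Nkg7 and 1.48 for Ncr1. Next in that group came 1.05 for Klrk1, 1.68 for Klrg1, 1.34 for Eomes, 1.67 for Cd274 and 2.53 for Pdcd1lg2.

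Myeloid genes had differences of 1.19 for Ly6c2, 0.68 for Plac8, 1.04 for Ccr2, 1.88 for S100a8, 1.59 for S100a9 and 2.02 for Cxcr2. Next in that group came 1.5 for Csf3r, 1.1 for Cpa3, 1.64 for Ms4a2, 0.29 for Csf1r, 0.53 for C1qa and -1.47 for Gpnmb. The remaining values were 0.84 for Fcgr1 and -0.86 for Cd209a.

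Interferon, antigen presentation, chemokine and metabolic genes had differences of 0.70 for Irf1, 0.61 for B2m, 0.70 for H2-K1, 0.77 for H2-D1, 0.87 for H2-Aa and 0.96 for H2-Ab1. Next in that group came 1.21 for Ccl2, 1.15 for Ccl7, 2.5 for Cxcl1, 2.02 for Cxcl5, 0.48 for Il15 and 1.11 for Slc16a3.

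Other genes of firm difference had differences of 3.94 for Lcn2, 1.08 for Card9, 1.09 for Fuca2, 0.51 for Kif3b, 2.05 for Hsd11b1 and 0.95 for Scly. Next in that group came 1.78 for Serpinb9b, 0.76 for Ostm1, 0.72 for Abr, -0.57 for Prdx2, -0.79 for Vkorc1 and -1.24 for S100a4. The remaining values were -1.48 for Enpp1, -0.90 for Dap, -1.02 for Slc6a8, -2.76 for Penk and -0.43 for Oat.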

How the results depend on the processing

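Among responders, 12041 genes were called, 12070 with RLE scaling, 11894 with library totals alone, 15489 without the filter, 14742 with DESeq2, 12605 with 48 libraries in 1 fit, 11015 with RNA purity, 10287 to 11147 between pairs of flow cells and 11953 to 12283 without 1 library. At 2-fold, 3528 became 6909 without the filter and 6011 with DESeq2, and 3541 to 3676 without 1 library. Without AB1 responder 12 and Renca responder 11, an alternative chosen after seeing the data, 12190 were called, 3663 at 2-fold. The replicate block gave 11715 genes, 3504 at 2-fold. Same-numbered AB1 and Renca libraries shared only a number: their deviations correlated between -0.251 and 0.153, above 0.1 for 1 of 12 pairs, and 2 of 12 libraries correlated best with their own number. Library totals alone moved the median of all genes to -0.04, from 0.00935, and the split of higher to lower calls to 5449 and 6445; without Renca responder 2 the split was 6357 and 5676. Of 66 list and chromosome medians, 19 moved under RLE scaling, library totals or without AB1 responder 12 and Renca responder 11 together. These were oxidative phosphorylation and 18 chromosomes.

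Of 113 called genes named, 6 lost the call under some alternative and none changed direction in 4068 alternative values. Col3a1 was -0.17, H2-Ab1 0.34, Mgl2 -0.97 and H2-D1 -0.26 to -0.28 between a pair of flow cells, Lcn2 0.86 with RNA purity, and Xcr1 0.34 to 0.58 in 4 settings. Uncalled genes changed sign: between pairs of flow cells, Cd8a was 0.10, Cd4 0.02 (0.0209 and 0.0176), Foxp3 -0.30 and -0.0585 and Csf1r -0.10, and Csf1r was -0.02 with library totals (-0.0234), -0.0731 with RNA purity and -0.0183 to 0.0653 without 1 library, the lowest without AB1 responder 7. Foxp3 was called at 0.57 between a pair of flow cells, H2-K1 at -0.17 with library totals and Rsad2 at 0.41 to 0.70 in 14 settings; the cause was not tested in any of these. For the difference, 7441 genes became 7228 with RLE scaling, 6908 without the filter, 7415 with DESeq2, 7354 without the flow cell term and 7347 with the block, and all 16 named genes kept their call and direction in 80 alternative values. Flow cells within a line differed for 0 of the genes in AB1 (edgeR, 819 at an unadjusted p under 0.05) and 68 in Renca. Line, flow cell and day cannot be told apart, and counts near 0 limit the ratios of silent genes.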

Other observations

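Counts of the gene groups below are to be read against 38.5% of all genes tested higher and 38.5% lower in AB1. Of 11 bone and cartilage genes, 4 were higher and 6 lower in AB1 (median -0.27), with Col10a1 apart from the others. Of 9 angiogenic ligands, 4 were higher and 4 lower (median 0.05), and of 8 pericyte genes 1 was higher and 5 lower (median -0.33). Csn3, the milk protein kappa-casein, was at 14.5 to 28.3 CPM (median 20.7) in Renca and 0 to 0.819 CPM (median 0.304) in AB1 (log2 fold change -6.01 ± 0.26), the 1 mammary gene tested. Plin4, a lipid droplet protein, was at 465 to 715 CPM (median 575) in Renca and 3.03 to 79 CPM (median 29.1) in AB1 (-4.09 ± 0.33), the 1 fat gene of 8 that was lower, beside 2 that were higher.

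Small lists gave 4 higher and 2 lower of 7 plasmacytoid dendritic cell genes, 1 and 1 of 4 lymphatic endothelial genes, 3 and 0 of 3 skin genes, 0 and 1 of 6 red cell and platelet genes and 2 and 0 of 4 nerve genes. The 4 genes of the Y chromosome listed had 0 to 27 counts over each responder group, in female hosts. The counts of pericyte, plasmacytoid, lymphatic, fat and nerve genes moved by more than 1.5 times when single libraries were left out.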
